A study of Mus musculus with 31 samples.

Results

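The collagen genes were taken as every gene symbol of the count tables made of Col, a number, the letter a and a second number, that reached 10 counts in 3 or more of 31 libraries. This gave 43 genes out of 22609 symbols, and no collagen symbol failed the count rule. Of the 43, 9 code for chains of the fibrillar types (types 1, 2, 3, 5 and 11), 8 for chains of types found in basement membranes (types 4, 15 and 18) and 26 for chains of other types. Types 24 and 27 also form fibrils, but by this rule they were counted with the other types.

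The libraries are bulk RNA-seq of masseter muscle (MM), a muscle that closes the jaw, from 31 adult wild-type male C57BL/6J mice, with 1 library per mouse. The left MM was injected once with complete Freund's adjuvant (CFA, an oil emulsion with killed mycobacteria that causes inflammation), with a crude preparation of collagenase type 2 (Col, bacterial enzymes that cut collagen) or with PBS as vehicle. In the CFA experiment 3 mice were taken at 1d, 3 at 5d and 3 had received vehicle. In the Col experiment 4 mice formed each of the 0.2U groups labelled 1C and RPC, for which the labels give no day. After 10U Col there were 4 mice labelled 2d, 3 labelled 6d and 4 labelled 12d, and 3 mice of this experiment had received vehicle. No mouse carried a transgene, and the dissection left out tendons as far as possible. The paper's text gives other days for the earliest and the latest 10U group, and the days of the labels are used here. Neither source gives the day on which vehicle mice were collected. Each group was compared with the vehicle group of its own experiment, to ask which collagen classes changed after an enzyme that cuts collagen and after an inflammatory agent that does not.

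Collagens are made of 3 chains wound into a triple helix, and each chain has its own gene. The fibrillar types 1, 3 and 5 form the fibrils of tendon and of the connective tissue around muscle fibres, and types 2 and 11 form those of cartilage. Type 4 forms the sheet-like network of the basement membrane that wraps each muscle fibre and each capillary, and types 15 and 18 lie in the zone around it. Among the other types, type 6 forms beaded filaments next to the basement membrane, types 12 and 14 sit on the surface of fibrils, type 8 forms networks in vessel walls, type 10 is made by hypertrophic cartilage, and types 7 and 17 anchor the epidermis to the dermis.

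To show the regulatory sequence behind the main members, RefSeq promoter windows (build GRCm38.p6, the 250 bases before each annotated start) were searched. They were found for 35 of the 43 genes, in 38 windows. Col1a1, Col2a1, Col4a3, Col5a2, Col9a3, Col12a1, Col14a1 and Col22a1 were not among them. The 4 windows printed here belong to Col1a2 and Col3a1, which code for chains of the main fibrils, and to Col8a1 and Col10a1, other types whose values at 6d post-Col (10U) and in the 0.2U group 1C are described below. The window of Col1a2 is chr6:4505368-4505617 (plus strand), that of Col3a1 is chr1:45311288-45311537 (plus strand), that of Col8a1 is chr16:57754738-57754987 (minus strand) and that of Col10a1 is chr10:34389731-34389980 (plus strand). They are written 5′ to 3′ on the strand of the gene, and capitals mark CCAAT (the CCAAT box), TATAAA (the TATA box) and GGGCGG (the GC box), read on both strands.
Col1a2: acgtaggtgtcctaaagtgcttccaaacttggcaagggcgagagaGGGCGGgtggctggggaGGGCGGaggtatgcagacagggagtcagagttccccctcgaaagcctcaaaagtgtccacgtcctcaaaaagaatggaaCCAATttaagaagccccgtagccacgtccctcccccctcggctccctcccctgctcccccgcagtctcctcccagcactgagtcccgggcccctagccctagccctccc
Col3a1: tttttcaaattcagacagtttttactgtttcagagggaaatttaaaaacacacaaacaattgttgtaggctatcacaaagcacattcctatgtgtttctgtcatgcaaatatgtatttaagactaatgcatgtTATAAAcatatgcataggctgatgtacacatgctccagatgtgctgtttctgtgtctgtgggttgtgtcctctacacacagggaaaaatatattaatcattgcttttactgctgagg
Col8a1: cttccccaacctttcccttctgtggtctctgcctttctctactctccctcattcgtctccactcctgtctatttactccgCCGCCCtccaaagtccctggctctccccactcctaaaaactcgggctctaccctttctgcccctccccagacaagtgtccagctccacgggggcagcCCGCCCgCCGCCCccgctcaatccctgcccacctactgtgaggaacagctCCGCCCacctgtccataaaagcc
Col10a1: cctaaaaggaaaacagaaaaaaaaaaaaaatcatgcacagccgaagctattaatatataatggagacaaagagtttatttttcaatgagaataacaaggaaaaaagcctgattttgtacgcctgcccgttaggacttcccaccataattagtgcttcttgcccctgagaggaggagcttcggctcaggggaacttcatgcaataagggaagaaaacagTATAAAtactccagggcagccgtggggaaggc
Col1a2 held 1 CCAAT, starting 109 bases before the start site, and 2 GGGCGG. Col3a1 held 1 TATAAA, 117 bases before the start, and Col10a1 held 1 TATAAA, 32 bases before it. Col8a1 held 4 GGGCGG and neither of the other motifs. CCAAT occurred in 3 of 6 fibrillar, 4 of 8 basement membrane and 6 of 24 other windows, against 33.9% of all 32851 windows of this length. GGGCGG occurred in 5 of 6, 4 of 8 and 13 of 24 of them, against 32.7% of all windows, and TATAAA in 2 of 6, 0 of 8 and 3 of 24, against 12.4%. These counts describe letters in a window and say nothing about the binding of a factor.

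Each library had between 14843778 and 29076671 reads on genes, and levels are given as CPM, the counts of a gene scaled to a common library size with TMM factors, in the order of the mouse numbers. The libraries did not all look alike in ways that touch the collagen genes. The share of reads that matched more than 1 gene was 0.675% to 0.875% in the 11 libraries of 10U Col and 0.147% to 0.317% in the other 20, vehicle included and none of the 11 overlapped the 20. Whether these libraries were counted in another way was not tested. The exons of collagen genes overlap exons on the opposite strand over at most 6.07% of their length (Col9a3), then 0.575% (Col10a1), 0.332% (Col4a2) and 0.323% (Col4a1), and over none of it in the other 39 genes. The summed level of 7 of 9 salivary gland markers ran from 11 to 288735 CPM over all libraries. It was 131418 to 165519 CPM at 5d post-CFA and 26393 to 288735 CPM in RPC, 49.2 to 118726 CPM at 2d after 10U Col, and 11 to 33.8 and 37.4 to 626 CPM at 6d and 12d after 10U Col. That of 6 skeletal muscle markers was 87756 to 131939 CPM in vehicle mice of the Col experiment and 25093 to 46722, 26345 to 48359 and 38073 to 103922 CPM at 2d, 6d and 12d after 10U Col. In bulk tissue, fewer cells of a type and less RNA per cell cannot be told apart.

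In vehicle-treated MM the collagen genes with the highest level per length were those of types 1, 3, 4 and 6. As RPKM, which scales reads by exon length and library size, Col1a1 stood at 211 ± 173 (SD, n = 3) in the vehicle mice of the Col experiment, Col3a1 at 161 ± 105, Col1a2 at 134 ± 108, Col4a1 at 71.4 ± 23.6, Col4a2 at 48.7 ± 11.7 and Col6a1 at 46.8 ± 22. The order of these 6 was the same in the vehicle mice of the CFA experiment, and in neither group did the means of neighbours in this order differ by more than the larger of their SDs, save Col4a1 and Col4a2 in the CFA experiment (55.2 ± 12.9 and 39.9 ± 11.8 RPKM). The spread between vehicle mice was wide for fibrillar genes. Across 9 fibrillar genes the highest of the 3 vehicle mice of the Col experiment was at a median of 9.81 times the lowest, against 1.69 times for 8 basement membrane genes and 1.52 times for the 12890 genes with at least 10 counts in each of the 3. In the CFA experiment these medians were 10.2, 1.78 and 1.55 times. Among vehicle mice of the Col experiment, Col1a1 stood at 2357, 142 and 1655 CPM and Col3a1 at 2059, 372 and 1634 CPM, so that mouse 2 was far below the others. Among those of the CFA experiment Col1a1 stood at 50.3, 199.7 and 1544 CPM, with mouse 3 far above. These mice also differed in markers of other tissues: 6 tendon markers summed to 1797, 130.3 and 1115 CPM in vehicle mice 1 to 3 of the Col experiment and to 82, 212 and 766 CPM in those of the CFA experiment, and the 7 salivary gland markers to 90.9, 146509 and 41663 CPM and to 106, 115 and 15021 CPM. In vehicle mice 1 to 3 of the Col experiment 8 bone markers summed to 199, 44.6 and 263 CPM. In those of the CFA experiment they summed to 57, 77.6 and 210 CPM. The part of tendon, gland or bone in the fibrillar levels was not tested.

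The share of all reads counted on genes that fell on the 9 fibrillar genes was 0.736, 0.0652 and 0.574% in vehicle mice of the Col experiment. It was 2.68, 2.75 and 1.47% at 6d post-Col (10U), where all 3 mice lay above all vehicle mice. At 12d it was 0.341, 0.559, 0.575 and 2.68%, with mouse 4 alone at the level of 6d, and at 2d it was 0.46, 0.6, 1.08 and 0.262%. On the 8 basement membrane genes the share was 0.117, 0.0593 and 0.0774% in the same vehicle mice and 0.21, 0.202 and 0.172% at 6d, and on the 26 other genes 0.119, 0.0274 and 0.108% and 0.451, 0.498 and 0.264%. In both classes the mice at 6d also lay above the vehicle mice. In the CFA experiment the fibrillar share was 0.0321, 0.0907 and 0.568% in vehicle mice, 0.202, 0.282 and 0.424% at 1d and 0.409, 0.0673 and 0.137% at 5d, and these groups overlapped.

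**Figure D1:**
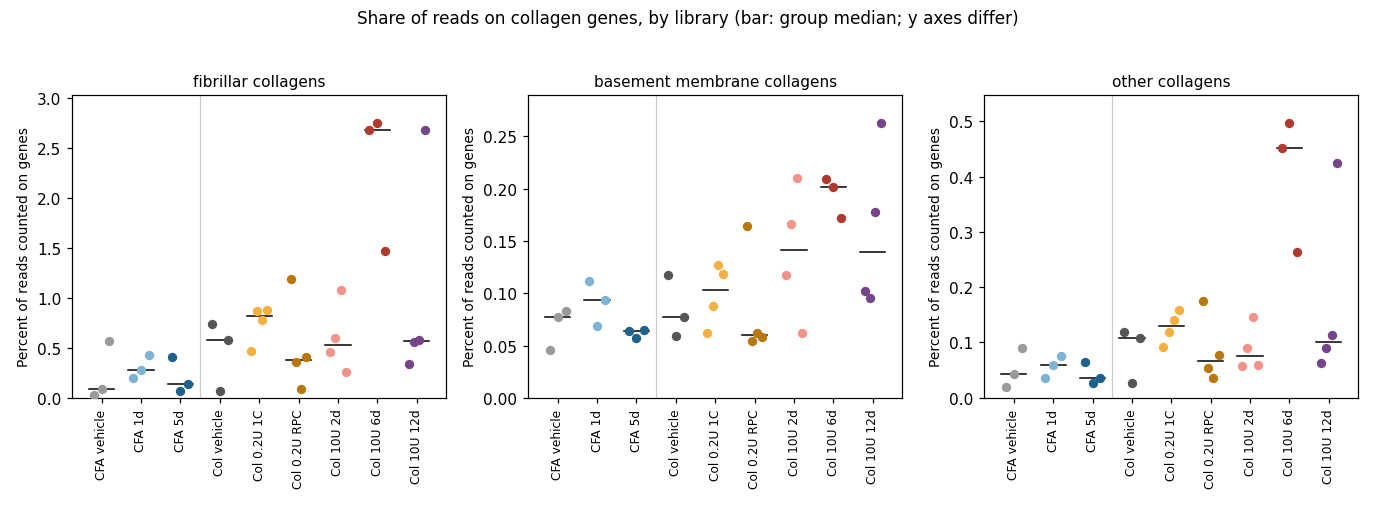
Percent of reads counted on genes that fell on fibrillar, basement membrane and other collagen genes (y axis, linear from 0, a different range in each panel) in each of 31 libraries by group (x axis). Each point is 1 mouse and the bar is the group median. The 3 mice at 6d post-Col (10U) lie between 1.47% and 2.75% in the fibrillar panel, above every vehicle mouse.

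Of all comparisons with vehicle, the one at 6d post-Col (10U) held the most collagen genes that passed the test. Of 40 members tested against vehicle, 15 rose and 7 fell (edgeR's quasi-likelihood test, adjusted p under 0.05), while of all 14281 genes tested 14.0% rose and 13.3% fell. By class, 4 of 9 fibrillar genes rose and 1 fell, 2 of 8 basement membrane genes rose and 3 fell, and 9 of 23 other genes rose and 3 fell. The median log2 fold change was 1.74 for fibrillar, 0.18 for basement membrane and 0.82 for other genes, against 0.01 for all genes. The values of the mice did not overlap between groups for 19 members that were higher and 6 that were lower, and this held for 47.0% of all genes in either direction.

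Among the fibrillar genes the 3 chains of type 5, which take part in setting the diameter of type 1 fibrils, rose. Col5a1 stood at 248, 47.7 and 198 CPM in vehicle mice and at 1298, 1344 and 709 CPM at 6d (log2 fold change 2.76 ± 0.60, SE, edgeR adjusted p = 0.0175). For Col5a2 these values were 239, 39.7 and 188 CPM and 1364, 1281 and 767 CPM (log2 fold change 2.87 ± 0.63, SE, edgeR adjusted p = 0.0178). For Col5a3 they were 89.3, 40.7 and 52.2 CPM and 381, 331 and 214 CPM (log2 fold change 2.35 ± 0.35, SE, edgeR adjusted p = 0.00568). All 3 mice at 6d lay above all vehicle mice in each of these genes, with mouse 3 the lowest of the 3.

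Col3a1, the only chain of type 3, which is plentiful in soft connective tissue and early scar, was at 2059, 372 and 1634 CPM in vehicle mice and at 7286, 7215 and 4663 CPM at 6d (log2 fold change 2.24 ± 0.63, SE, edgeR adjusted p = 0.0364). The gene lies on chromosome 1 of build mm9 (45368383 to 45406551, plus strand) next to Col5a2 (45431166 to 45560127, minus strand). The chains of type 1, the main fibrillar collagen, did not pass the test. Col1a1 was at 2357, 142 and 1655 CPM in vehicle mice and 5566, 5481 and 2834 CPM at 6d (log2 fold change 1.74 ± 0.86, SE, edgeR adjusted p = 0.158), and Col1a2 at 2885, 265 and 1722 CPM and 4731, 4731 and 2683 CPM (log2 fold change 1.32 ± 0.75, SE, edgeR adjusted p = 0.209). The groups did not overlap in Col1a1 but did in Col1a2, where vehicle mouse 1 lay above mouse 3 at 6d. Col2a1, the chain of cartilage fibrils, fell: it was at 11.1, 0.326 and 6.16 CPM in vehicle mice and 0.385, 0.813 and 0.668 CPM at 6d (log2 fold change -3.22 ± 0.99, SE, edgeR adjusted p = 0.0474). Its groups overlapped, since vehicle mouse 2 lay below the mice at 6d. The chains of type 11, which join type 2 in cartilage, gave values of 53.1, 1.3 and 43.4 CPM and 53.7, 52.5 and 24.8 CPM for Col11a1 (log2 fold change 0.42 ± 0.93, SE, edgeR adjusted p = 0.754) and 47.4, 4.83 and 34.9 CPM and 13.3, 7.72 and 9.44 CPM for Col11a2 (log2 fold change -1.52 ± 0.68, SE, edgeR adjusted p = 0.127).

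**Figure D2:**
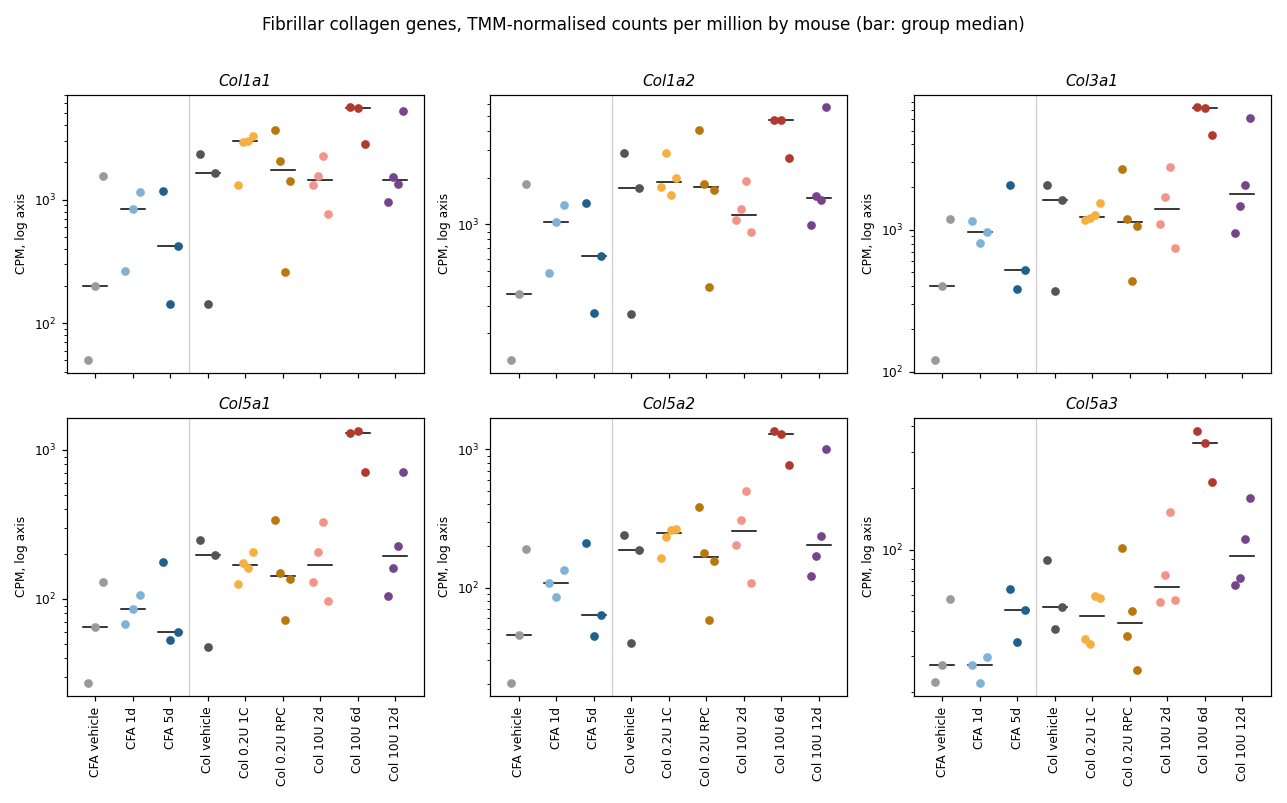
CPM (y axes, log scale) of 6 fibrillar collagen genes in each mouse by group (x axis). Each point is 1 mouse and the bar is the group median. The type 5 genes and Col3a1 are highest at 6d post-Col (10U), and mouse 4 of the 12d group lies near them.

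The basement membrane class split. The 2 chains of the main type 4 network, Col4a1 and Col4a2, did not pass the test: Col4a1 was at 670.2, 418 and 371 CPM in vehicle mice and 762, 714 and 668 CPM at 6d (log2 fold change 0.56 ± 0.27, SE, edgeR adjusted p = 0.152), and Col4a2 at 409, 299 and 260 CPM and 496, 436 and 437 CPM (log2 fold change 0.51 ± 0.23, SE, edgeR adjusted p = 0.126). The chains of the specialised type 4 networks were low and 3 of these 4 fell. Col4a3 was at 6.55, 4.24 and 5.16 CPM in vehicle mice and 2.27, 1.12 and 2.25 CPM at 6d (log2 fold change -1.5 ± 0.37, SE, edgeR adjusted p = 0.026). Col4a4 was at 7.56, 3.65 and 4.08 CPM and 1.58, 1.02 and 1.71 CPM (log2 fold change -1.82 ± 0.40, SE, edgeR adjusted p = 0.0178), and Col4a6 at 0.728, 1.5 and 0.906 CPM and 0.385, 0.203 and 0.209 CPM (log2 fold change -1.95 ± 0.50, SE, edgeR adjusted p = 0.0287). In these 3 genes every mouse at 6d lay below every vehicle mouse. Col4a5 was at 5.05, 5.02 and 3.94 CPM and 4.28, 4.03 and 4.34 CPM (log2 fold change -0.14 ± 0.25, SE, edgeR adjusted p = 0.679), with overlap.

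Both collagens of the basement membrane zone rose. Col18a1, whose C-terminal fragment is endostatin, was at 46, 29.1 and 34.3 CPM in vehicle mice and 168, 174 and 114 CPM at 6d (log2 fold change 2.06 ± 0.24, SE, edgeR adjusted p = 0.00296). Col15a1, found around muscle fibres and capillaries, was at 126, 70.6 and 65.8 CPM and 186, 172 and 165 CPM (log2 fold change 1.0 ± 0.26, SE, edgeR adjusted p = 0.0276). The groups did not overlap in either gene. In Col15a1 mouse 1 of the vehicle group came nearest to the treated mice.

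**Figure D3:**
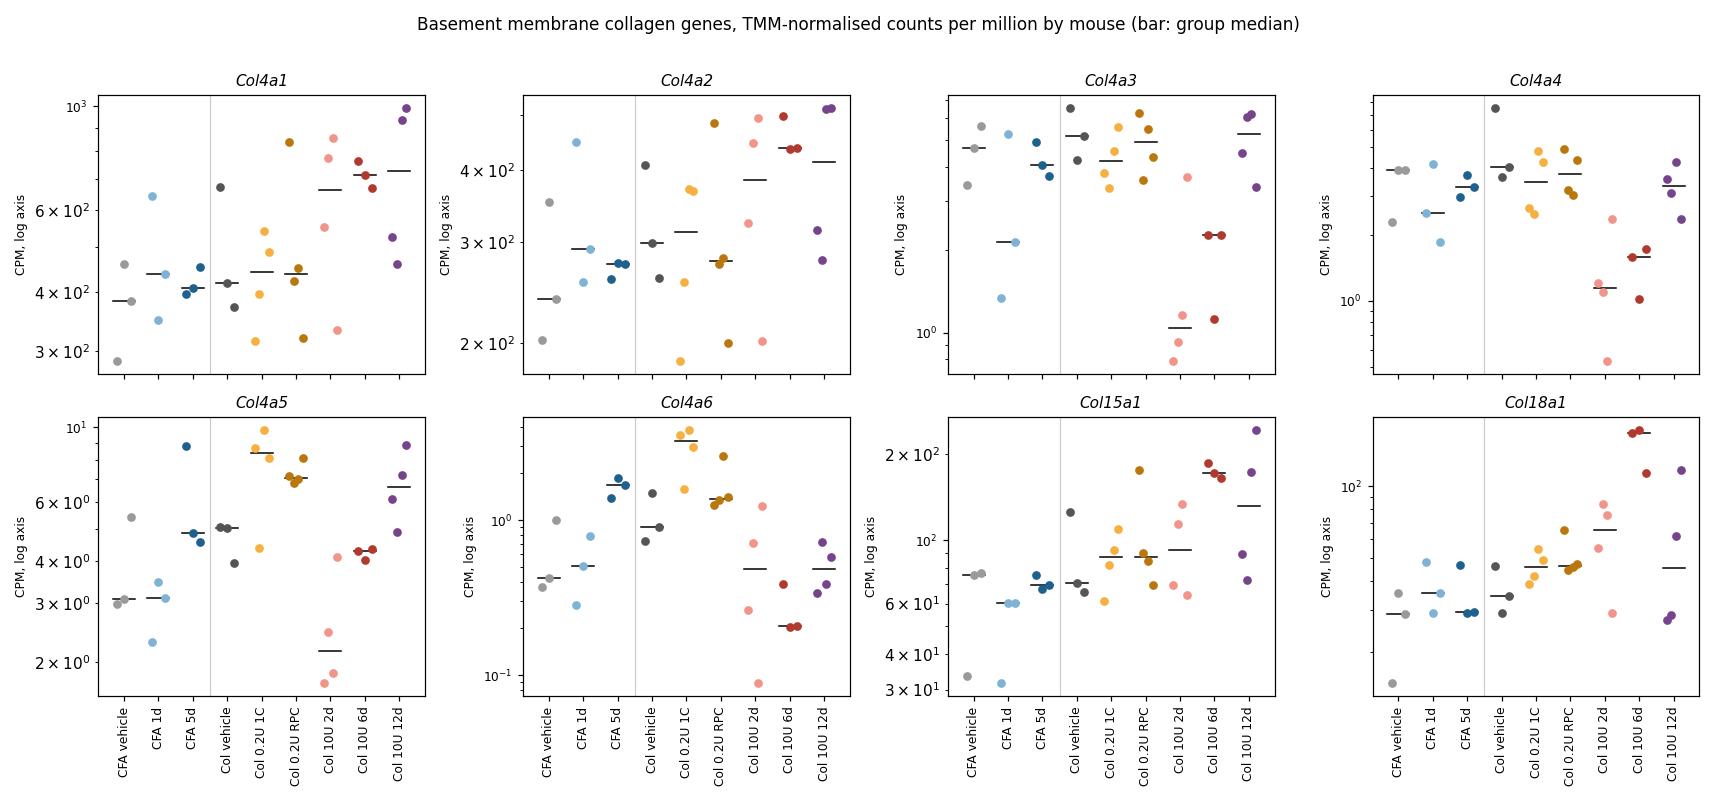
CPM (y axes, log scale) of 8 basement membrane collagen genes in each mouse by group (x axis). Each point is 1 mouse and the bar is the group median. Col18a1 is highest at 6d post-Col (10U), where Col4a3, Col4a4 and Col4a6 lie below their vehicle mice.

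Of the other types, the 3 chains of type 6 that are expressed broadly rose. Col6a1 was at 302, 109 and 206 CPM in vehicle mice and 753, 809 and 468 CPM at 6d (log2 fold change 1.72 ± 0.40, SE, edgeR adjusted p = 0.021). Col6a2 was at 258, 88.5 and 208 CPM and 741, 788 and 494 CPM (log2 fold change 1.87 ± 0.41, SE, edgeR adjusted p = 0.0179), and Col6a3 at 199, 63.9 and 158 CPM and 737, 760.5 and 407 CPM (log2 fold change 2.18 ± 0.45, SE, edgeR adjusted p = 0.0156). The groups lay apart in all 3. Col6a5, a further type 6 chain that was close to the limit of counting, fell from 1.55, 1.37 and 2.54 CPM to 0.556, 0.373 and 0.71 CPM (log2 fold change -1.74 ± 0.44, SE, edgeR adjusted p = 0.0277).

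Col10a1 (chromosome 10, 34109787 to 34116891, plus strand), of hypertrophic cartilage, rose from 3 counts or fewer in each vehicle library. It was at 1.71, 1.73 and 1.92 CPM at 6d, at least 11.5-fold higher than a floor of 3 counts per vehicle library (edgeR adjusted p = 0.00188). The gene was tested only because the mice at 6d reached 10 counts, and this also holds for the comparison with 2d below. Col19a1, a collagen linked to muscle and to synapses, was at 2.05, 1.63 and 2.67 CPM in vehicle mice and 13.4, 43.7 and 46.4 CPM at 6d (log2 fold change 4.0 ± 0.50, SE, edgeR adjusted p = 0.00362). Col8a1 (chromosome 16, 57624371 to 57754850, minus strand), a chain of the type 8 networks, was at 14.4, 7.57 and 19.1 CPM and 210.3, 194 and 119 CPM (log2 fold change 3.66 ± 0.39, SE, edgeR adjusted p = 0.00246). All mice at 6d were above all vehicle mice in these genes.

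The fibril-associated chain Col14a1 rose as well, from 41.2, 12.3 and 30.1 CPM to 121, 153 and 117 CPM (log2 fold change 2.22 ± 0.40, SE, edgeR adjusted p = 0.0102). Col12a1, of the same family, was at 147, 7.24 and 135 CPM in vehicle mice and 562, 623 and 273 CPM at 6d, without overlap, but did not pass the test (log2 fold change 2.33 ± 0.90, SE, edgeR adjusted p = 0.0876). Col23a1 and Col27a1 also rose, with log2 fold changes of 1.12 and 1.79. Col22a1, a collagen of the junction between muscle and tendon, fell, from 87.6, 13.7 and 46 CPM to 14.4, 3.83 and 10.4 CPM (log2 fold change -2.36 ± 0.69, SE, edgeR adjusted p = 0.0414), and Col20a1 fell by 1.02 on the log2 scale. In Col22a1 vehicle mouse 2 lay between mice 1 and 3 at 6d.

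Each of these 22 calls kept its direction in every fit that left out 1 of the 6 mice and in which the gene was tested, and 6 (Col5a3, Col8a1, Col10a1, Col14a1, Col18a1 and Col19a1) remained past the threshold in each such fit. Col10a1 could be tested in 3 of the 6 fits, those without a vehicle mouse, because only the mice at 6d reached 10 counts. Its place among the 6 is therefore no added support. Col4a6 could also be tested in 3, and passed in none of them. Without mouse 1 or without mouse 2 at 6d, 5 members rose and none fell, and without vehicle mouse 2, the mouse low in fibrillar genes, 15 rose and 8 fell. Without mouse 3 at 6d 11 rose and 1 fell, without vehicle mouse 1 12 and 2, and without vehicle mouse 3 13 and 4. The share of all genes called in each of these fits is not given, so the counts cannot be set against it. The 5 macrophage markers summed to 82.7 to 354 CPM in vehicle mice and 951 to 1837 CPM at 6d, the 6 fibroblast markers to 777 to 1985 and 985 to 1070.1 CPM, the tendon markers to 130.3 to 1797 and 601 to 723 CPM and the salivary gland markers to 90.9 to 146509 and 11 to 33.8 CPM. Of the 8 of 9 cartilage markers in the tables, the sum was 22.6 to 92.7 and 19.3 to 23 CPM, with Matn1 at 0 in both groups. The part of these tissues in the result was not tested, and the 10U libraries had the higher share of ambiguous reads given above.

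**Figure D4:**
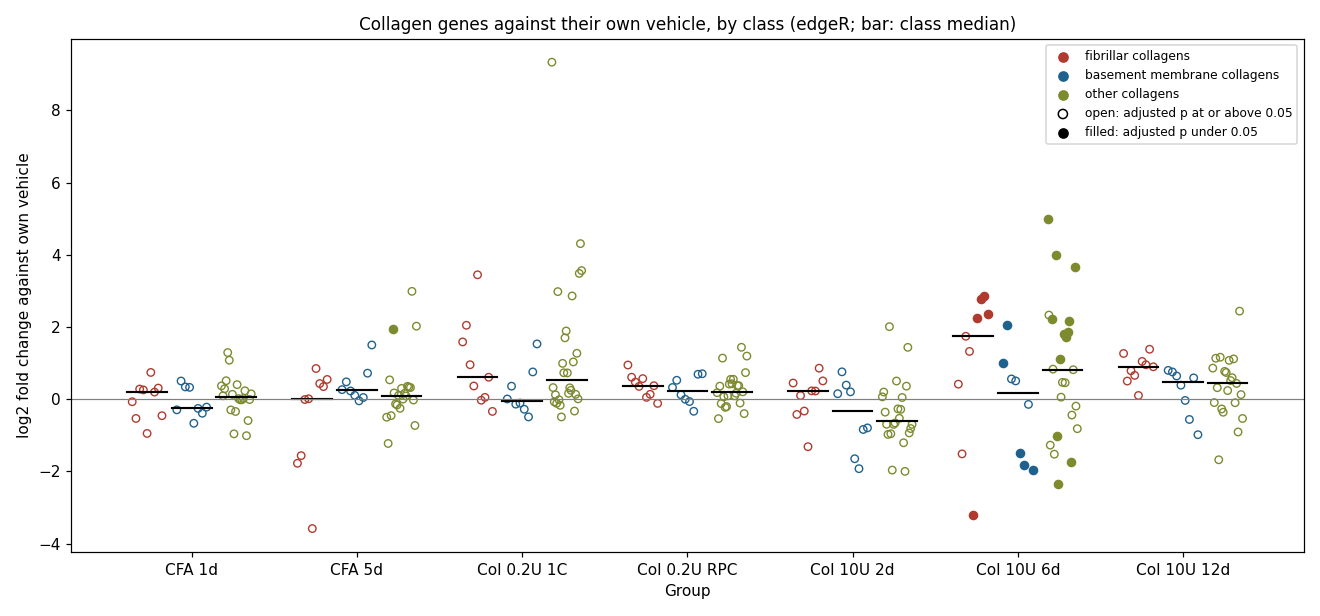
The log2 fold change of every tested collagen gene (y axis) against the vehicle group of its experiment, for the 7 treated groups (x axis), by class. Filled points passed the edgeR test at an adjusted p under 0.05, open points did not, and bars are class medians. Col10a1 in 1C and at 6d is drawn at its fitted value, which is no bound because its vehicle mice had 3 counts or fewer. At 6d post-Col (10U) 15 genes rose and 7 fell, and 1 gene, Col17a1, rose at 5d post-CFA.

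At 2d post-Col (10U) no member of 39 passed the test, against 2.22% of all 14373 genes. At an unadjusted p under 0.05 there were 6 members, against 33.3% of all genes, and DESeq2 called 1 member higher and 3 lower, against 20.5% of all genes. The median log2 fold change was 0.23 for fibrillar, -0.32 for basement membrane and -0.59 for other genes, against 0.02 for all genes. The groups lay apart for 2 members, Col4a3 and Col4a4, both lower, and for 23.9% of all genes. Col4a3 was at 0.788, 0.927, 1.15 and 3.68 CPM at 2d (log2 fold change -1.65 ± 0.58, SE, edgeR adjusted p = 0.1) and Col4a4 at 1.21, 1.09, 0.532 and 2.36 CPM (log2 fold change -1.93 ± 0.53, SE, edgeR adjusted p = 0.067), with mouse 4 the closest to vehicle in both. Mouse 4 also set the count of calls: without it 3 members (Col8a1, Col18a1 and Col19a1) rose and 6 (Col4a3, Col4a4, Col4a5, Col6a6, Col20a1 and Col22a1) fell. With the replicate number as a block, a fit to which mouse 4 adds nothing because it has no partner of that number, the counts were also 3 and 6. The share of all genes called in these fits is not given here, so the counts cannot be set against it.

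The fibrillar genes at 2d gave no call. Col1a1 was at 1304, 1562, 2246 and 768 CPM (log2 fold change 0.10 ± 0.78, SE, edgeR adjusted p = 0.94), Col3a1 at 1096, 1690, 2779 and 739.5 CPM (log2 fold change 0.23 ± 0.64, SE, edgeR adjusted p = 0.824) and Col5a2 at 204, 310, 497 and 109 CPM (log2 fold change 0.86 ± 0.66, SE, edgeR adjusted p = 0.383), all overlapping the vehicle mice. Col8a1 was at 21.4, 48.6, 64.8 and 13.2 CPM, with mice 1 to 3 above every vehicle mouse and mouse 4 among them (log2 fold change 1.44 ± 0.57, SE, edgeR adjusted p = 0.128). Col19a1 was at 18.5, 6.38, 6.74 and 2.51 CPM, also with mouse 4 among the vehicle mice (log2 fold change 2.01 ± 0.64, SE, edgeR adjusted p = 0.084).

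Compared directly with 2d, 14 of 40 members rose at 6d and none fell, whereas 4.68% of all 14513 genes rose and 4.05% fell. Both groups are among the 11 libraries with the higher share of ambiguous reads. The 14 were 5 fibrillar genes (Col1a2, Col3a1, Col5a1, Col5a2 and Col5a3) and 9 other genes, led by Col10a1 (log2 fold change 4.0 ± 0.70, SE), Col14a1 (2.58 ± 0.36) and Col5a1 (2.54 ± 0.45). Col6a1, Col6a2, Col6a3, Col8a1, Col12a1, Col16a1 and Col23a1 were the rest of these. None of 7 tested basement membrane genes passed, with Col18a1 at 1.3 ± 0.34 and Col4a1 at 0.17 ± 0.33 on the log2 scale. Col1a1 did not pass either (log2 fold change 1.64 ± 0.45, SE, edgeR adjusted p = 0.0618). The counts ran from 1 without mouse 2 at 6d to 22 without mouse 4 at 2d, when Col2a1, Col11a2 and Col13a1 were called lower. Leaving out mouse 1 at 6d 2 members rose, and leaving out mouse 3 at 6d 8 did. At 2d, leaving out mouse 1 gave 7 higher, mouse 2 gave 3 higher and 1 lower (Col11a2), and mouse 3 gave 16 higher. In these fits, too, the share of all genes called is not given. Of the 14, Col23a1 alone remained past the threshold with any 1 mouse left out. Markers of other tissues were also summed for these mice. The salivary gland markers summed to 49.2 to 118726 CPM at 2d and 11 to 33.8 CPM at 6d, the macrophage markers to 419 to 999 and 951 to 1837 CPM, the fibroblast markers to 534 to 1334 and 985 to 1070.1 CPM and the tendon markers to 308 to 723 and 601 to 723 CPM. In the salivary gland markers the groups did not overlap, and in the macrophage, fibroblast and tendon markers they did. The groups also lay apart in markers of bone (74 to 214 and 9.82 to 47.2 CPM) and cartilage (38.8 to 60.3 and 19.3 to 23 CPM). The same held for 4 Schwann cell markers (316 to 426 and 58.4 to 216 CPM). Those of skin, endothelium, skeletal muscle and adipocytes overlapped. The part of these tissues in the comparison of 6d with 2d was not tested.

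At 12d post-Col (10U) none of 38 members passed the test against vehicle, where 1.23% of all 14176 genes did. At an unadjusted p under 0.05 there were 3 members, against 17.4% of all genes, and DESeq2 called 1, Col8a1, against 5.68%. The groups lay apart for 2 members (Col28a1 higher and Col4a6 lower) and for 17.1% of all genes. The class medians were 0.90, 0.49 and 0.44 for fibrillar, basement membrane and other genes, but they rested in part on mouse 4: without it they were 0.02, 0.18 and -0.25. Mouse 4 had Col3a1 at 6106 CPM, where mice 1 to 3 had 954, 1465 and 2083 CPM. It had Col1a1 at 5187 CPM against 955, 1529.8 and 1344 CPM, and Col8a1 at 209.8 CPM against 15.8, 30.9 and 26.8 CPM. In these genes mouse 4 lay in the range of the mice at 6d and mice 1 to 3 in or near that of vehicle mice. The tendon markers of mouse 4 summed to 1636 CPM against 313 to 486 CPM, its macrophage markers to 692 CPM against 100.5 to 208 CPM and its skeletal muscle markers to 38073 CPM against 78179 to 103922 CPM. The part of these tissues in the values of mouse 4 was not tested.

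From 6d to 12d, 7 of 39 members rose and 4 fell, whereas 13.4% of all 14344 genes rose and 13.0% fell. The 7 were Col2a1 (log2 fold change 3.24 ± 0.94, SE, edgeR adjusted p = 0.0408), Col4a3, Col4a4, Col11a2 (log2 fold change 1.96 ± 0.61, SE, edgeR adjusted p = 0.0486), Col6a5, Col20a1 and Col22a1. The 4 that fell were Col19a1 (log2 fold change -2.89 ± 0.56, SE, edgeR adjusted p = 0.0165), Col7a1 (log2 fold change -1.74 ± 0.41), Col27a1 (-1.6 ± 0.36) and Col5a3 (-1.5 ± 0.37). The mice at 6d enter this comparison and those above, so the values are not independent of them. The groups at 6d and 12d lay apart in markers of bone (9.82 to 47.2 and 103 to 283 CPM) and salivary gland (11 to 33.8 and 37.4 to 626 CPM). They also lay apart in those of macrophages (951 to 1837 and 100.5 to 692 CPM) and endothelium (527 to 649 and 683 to 907 CPM). In the other marker lists they overlapped. The part of these tissues in the comparison of 12d with 6d was not tested.

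The counts moved most with mouse 4 at 12d. Without it 8 members rose and 19 fell from 6d to 12d, and with the replicate number as a block, where mouse 4 again has no partner, 9 rose and 19 fell. For these fits, too, the share of all genes called is not given here. In the fit without mouse 4 and with no block, Col1a1 gave a log2 fold change of -1.87 ± 0.33, SE, edgeR adjusted p = 0.00262. Col3a1 gave -2.1 ± 0.35, SE, edgeR adjusted p = 0.00196, Col5a2 gave -2.7 ± 0.32, SE, edgeR adjusted p = 0.000587 and Col6a1 gave -2.0 ± 0.32, SE, edgeR adjusted p = 0.00169. With all 4 mice these genes gave -1.02 ± 0.61, -1.25 ± 0.62, -1.55 ± 0.71 and -1.26 ± 0.55, and none passed. Mouse 4 was set apart by its high values of these same genes, so the p-values without it are no independent test of a fall. Leaving out any of the other 6 mice gave 0 to 2 members higher and 0 to 4 lower, with no higher call without mouse 1 or mouse 3 at 12d and no lower call without mouse 2 at 6d. Without mouse 1 of either group, or mouse 2 or 3 at 12d, 1 member was lower. Leaving out mouse 1 or 2 at 6d, or mouse 2 at 12d, left 1 member higher, and leaving out mouse 3 at 6d left 2 higher and 4 lower.

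In the 0.2U group 1C, the members farthest above vehicle were collagens of cartilage (Col10a1, the 3 chains of type 9 and Col2a1), followed by Col17a1, but none passed the test. No member of 43 passed edgeR's test, as no gene of 14493 did (0%). At an unadjusted p under 0.05 there were 13 members, against 12.6% of all genes, and DESeq2 called 8 members higher, against 3.25% of genes in either direction. The groups lay apart for 10 members, all higher in 1C, against 9.76% of all genes. These were Col2a1, Col4a6, Col8a1, Col9a1, Col9a2, Col9a3, Col10a1, Col11a1, Col17a1 and Col27a1, and the DESeq2 calls were these without Col2a1 and Col11a1.

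Col10a1 was at 50.4, 10.5, 26.5 and 57.7 CPM in group 1C and at 3 counts or fewer in each vehicle library. All 4 mice of 1C lay above each of the other 27 libraries, where the highest value was 2.4 CPM, and the level was at least 232-fold higher than the floor of 3 counts per vehicle library (edgeR adjusted p = 0.105). Type 9 collagen coats the fibrils of cartilage, and its chains were also higher in each 1C mouse than in each vehicle mouse. Col9a1 was at 0.319, 0.0652 and 0 CPM in vehicle mice and 0.934, 1.89, 1.45 and 1.77 CPM in 1C (log2 fold change 3.48 ± 0.84, SE, edgeR adjusted p = 0.251). Col9a2 was at 0.865, 1.11 and 0.86 CPM and 10.9, 6.73, 28.2 and 28.1 CPM (log2 fold change 4.31 ± 0.62, SE, edgeR adjusted p = 0.246), and Col9a3 at 0.41, 0.913 and 0.906 CPM and 5.33, 3.79, 11.2 and 14.6 CPM (log2 fold change 3.56 ± 0.61, SE, edgeR adjusted p = 0.246). Col2a1 was at 11.1, 0.326 and 6.16 CPM and 20.8, 182, 19.9 and 35.1 CPM, with mouse 2 of 1C far above the rest (log2 fold change 3.45 ± 1.18, SE, edgeR adjusted p = 0.318). Mouse 2 was the lowest of the 4 for Col10a1, so the order of the mice differed between these cartilage collagens. Col17a1 was at 1.23, 7.63 and 2.04 CPM in vehicle mice and 23.1, 8.77, 36.9 and 44.5 CPM in 1C (log2 fold change 2.98 ± 0.80, SE, edgeR adjusted p = 0.266). Col7a1, the other collagen of the epidermal junction, overlapped, at 1.82, 14.4 and 12.2 CPM and 23.8, 2.74, 10.2 and 4.44 CPM.

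Without mouse 2 of 1C, 3 members passed edgeR's test (Col9a2, Col9a3 and Col10a1), and without mouse 1 there was 1, Col10a1. How many of all genes passed in these fits is not given here. The cartilage markers summed to 22.6 to 92.7 CPM in vehicle mice and 122 to 397 CPM in 1C, with Matn1 at 0 in every vehicle mouse and at most 0.0549 CPM in 1C. Acan, of cartilage matrix, was at 11.1, 0.196 and 9.92 CPM in vehicle mice and 95.5, 19.6, 49 and 138 CPM in 1C, with mouse 2 the lowest. The 7 of 8 skin markers in the tables summed to 75.1 to 171 and 308 to 607 CPM, and the 8 bone markers to 44.6 to 263 and 129 to 492 CPM. The part of these tissues in the result was not tested. Fibrillar genes of connective tissue overlapped vehicle, with Col3a1 at 1171, 1202, 1268 and 1558 CPM (log2 fold change -0.03 ± 0.49, SE, edgeR adjusted p = 0.985) and Col5a1 at 126, 174, 162 and 205 CPM (log2 fold change 0.05 ± 0.47, SE, edgeR adjusted p = 0.973). Col1a1 was at 1309, 2936, 2999.9 and 3242 CPM, with 3 of 4 mice above all vehicle mice (log2 fold change 0.95 ± 0.77, SE, edgeR adjusted p = 0.62). Col4a1 was at 315, 397, 541 and 487 CPM (log2 fold change -0.14 ± 0.27, SE, edgeR adjusted p = 0.842).

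**Figure D5:**
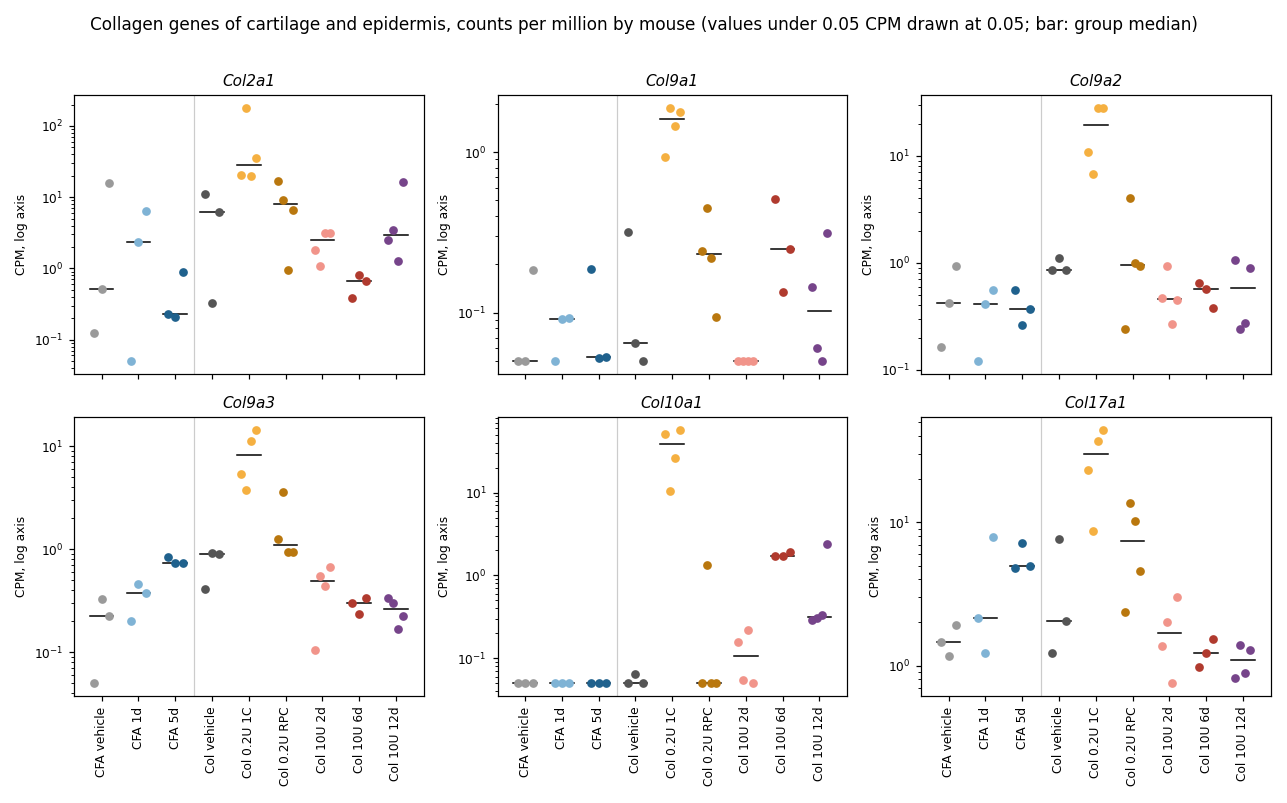
CPM (y axes, log scale, values under 0.05 drawn at 0.05) of 6 collagen genes of cartilage and of the epidermal junction in each mouse by group (x axis). Each point is 1 mouse and the bar is the group median. Col10a1 lies between 10.5 and 57.7 CPM in the 4 mice of the 0.2U group 1C and at most at 2.40 CPM in the other 27 mice.

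In the 0.2U group RPC no member of 40 passed edgeR's test, as no gene of 14269 did (0%), and DESeq2 called no member, where it called 3.16% of genes. At an unadjusted p under 0.05 there were 2 members (Col4a5 and Col18a1), against 13.5% of all genes. The groups lay apart for 3 members, Col4a5, Col9a3 and Col28a1, each higher, against 12.2% of all genes. Col4a5 was at 7.18, 6.85, 7.0 and 8.08 CPM (log2 fold change 0.69 ± 0.19, SE, edgeR adjusted p = 0.277), and Col18a1 was at 65.7, 44.2, 45.6 and 46.8 CPM with mice 2 and 3 inside the vehicle range (log2 fold change 0.52 ± 0.20, SE, edgeR adjusted p = 0.336). Class medians were 0.37, 0.22 and 0.20 for fibrillar, basement membrane and other genes. Col1a1 ran from 261 to 3631 CPM over the 4 mice and Col3a1 from 436 to 2702 CPM, with mouse 3 lowest and mouse 1 highest in both. The groups 1C and RPC were not compared with each other.

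At 1d post-CFA no member of 37 passed edgeR's test and none was called by DESeq2, while edgeR called 0% and DESeq2 0.444% of all genes. At an unadjusted p under 0.05 there was 1, Col23a1, against 4.22% of 13944 genes. It was also the only member whose groups lay apart, against 6.22% of all genes, at 9.08, 11.8 and 9.49 CPM in vehicle mice and 4.11, 5.89 and 5.62 CPM at 1d (log2 fold change -0.96 ± 0.27, SE, edgeR adjusted p = 0.924). Col1a1 was at 263, 837 and 1159 CPM (log2 fold change 0.28 ± 1.12, SE, edgeR adjusted p = 0.993), Col3a1 at 1163, 803 and 959.9 CPM (log2 fold change 0.74 ± 0.72, SE, edgeR adjusted p = 0.936) and Col4a1 at 643, 349 and 439 CPM (log2 fold change 0.34 ± 0.31, SE, edgeR adjusted p = 0.931). All 3 overlapped the vehicle mice.

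At 5d post-CFA 1 of 38 members rose and none fell, where 1.06% of all 14026 genes rose and 0.0428% fell. The gene was Col17a1, a chain of the junction below epithelia, at 1.47, 1.17 and 1.93 CPM in vehicle mice and 4.84, 7.13 and 4.98 CPM at 5d (log2 fold change 1.94 ± 0.33, SE, edgeR adjusted p = 0.0486). The call was lost in 5 of 6 fits that left out 1 mouse and in 5 of 6 alternative fits. It also failed the study's criteria, as mean RPKM at 5d was 0.98. Without vehicle mouse 3 the members called were Col4a6, Col5a3, Col7a1 and Col17a1. This was the vehicle mouse far above the others in Col1a1, and the fibrillar median was 1.76 without it and 0.01 with it. The share of all genes called without it is not given here. The groups lay apart for 4 members, against 19.9% of all genes: Col17a1, Col7a1 at 3.15, 0.656 and 3.78 and 32.8, 11.2 and 14.4 CPM, Col4a6 at 0.368, 0.422 and 1.0 and 1.4, 1.87 and 1.69 CPM, and Col9a3 at 0.0409, 0.328 and 0.222 and 0.837, 0.728 and 0.742 CPM. These libraries also held 131418 to 165519 CPM of salivary gland markers, against 106 to 15021 CPM in vehicle mice, and the part of gland tissue in these values was not tested. Col1a1 was at 1178, 144 and 424 CPM, Col3a1 at 2083, 381 and 517 CPM and Col5a1 at 176, 53 and 60.2 CPM, with mouse 1 the highest in each and mice 2 and 3 within the range of vehicle mice (log2 fold change 0.85 ± 0.92, SE, edgeR adjusted p = 0.757, for Col3a1). Mouse 1 lay above every vehicle mouse in Col3a1 and Col5a1 but within their range in Col1a1. Col8a1 was at 21, 4.37 and 4.82 CPM against 5.44, 9.93 and 16.6 CPM (log2 fold change -0.02 ± 0.69, SE, edgeR adjusted p = 0.995).

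The change at 6d post-Col (10U) was then set against that at 5d post-CFA, each against its own vehicle group, by testing the difference of the 2 log2 fold changes. Of 41 members, 3 differed towards 10U Col and 4 towards CFA, where 4.34% and 6.96% of all 14892 genes did. Col19a1 (log2 fold change 3.82 ± 0.59, SE, edgeR adjusted p = 0.00513, here the difference of log2 fold changes), Col8a1 (3.67 ± 0.88) and Col18a1 (1.57 ± 0.45) were the 3. Col17a1 (-3.49 ± 0.82), Col4a6 (-3.46 ± 0.72), Col9a3 (-3.37 ± 0.82) and Col4a4 (-1.87 ± 0.50) were the 4. No fibrillar gene passed, with a difference of 2.33 ± 0.98 for Col5a1 and 1.39 ± 1.23 for Col3a1 (edgeR adjusted p = 0.145 and 0.479). With any 1 of the 12 mice left out Col19a1 remained past the threshold, and Col18a1 and Col4a4 did in 3 of 12 fits each. The days differ between the agents, and the agents were given in separate experiments. The salivary gland markers summed to 131418 to 165519 CPM at 5d post-CFA and to 106 to 15021 CPM in its vehicle mice. At 6d post-Col (10U) they summed to 11 to 33.8 CPM, and to 90.9 to 146509 CPM in its vehicle mice. The part of gland tissue in these differences was not tested. Of these groups only that at 6d had the higher share of ambiguous reads, and Col9a3 overlaps opposite exons over 6.07% of its length. The vehicle groups themselves gave no call among 38 members and none at an unadjusted p under 0.05 or by DESeq2, against 0.0426%, 2.32% and 0.425% of all genes. Members were lower in the CFA experiment in 36 of 38, and their median was -0.66 on the log2 scale, beside -0.01 for all genes.

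Chains of 1 protein were set against each other within each library. Across all 31 libraries the RPKM ratio of Col4a1 to Col4a2 ran from 1.27 to 1.87, while Col4a1 itself ran from 285 to 993 CPM. The 2 genes lie head to head on chromosome 8 of build mm9 (Col4a1 at 11198423 to 11312826 on the minus strand, Col4a2 at 11312805 to 11449287 on the plus strand) and their models overlap. The ratio of Col6a1 to Col6a2 ran from 1.66 to 2.79 and that of Col1a1 to Col1a2 from 0.697 to 3.61, with the 4 mice of 1C from 1.38 to 3.61. The ratio of Col6a3 to Col6a1 was 0.216 to 0.282 in vehicle mice of the Col experiment and 0.35 to 0.395, 0.32 to 0.36 and 0.347 to 0.396 at 2d, 6d and 12d after 10U Col, higher than in vehicle in each 10U mouse. In 1C this ratio was 0.262 to 0.273, and in RPC 0.274 to 0.346, which overlaps 6d. In the CFA experiment it was 0.232 to 0.257 in vehicle mice, 0.239 to 0.29 at 1d and 0.237 to 0.316 at 5d. The 10U libraries had the higher share of ambiguous reads, and its part in the ratio was not tested. The neighbours Col3a1 and Col5a2 on chromosome 1 both rose at 6d, and Col9a1, which lies 9152 bp from Col19a1 on that chromosome, was at 0.319, 0.0652 and 0 CPM in vehicle mice and 0.514, 0.135 and 0.251 CPM at 6d, too few counts to test.

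Genes that process collagen were also called at 6d post-Col (10U), where the share of all genes called is given above. Of 30 genes for collagen synthesis and crosslinking, 29 were tested, 13 rose and 2 fell. The 3 with the largest change were P4ha3, a prolyl hydroxylase subunit (3.99 ± 0.81, log2 fold change and SE), Plod2, a lysyl hydroxylase (3.61 ± 0.64), and Lox, lysyl oxidase, which crosslinks fibrils (3.55 ± 0.42). The 2 that fell were Pcolce2 (-2.15 ± 0.42) and Ppib (-1.06 ± 0.23), but 54.2% of the exon length of Ppib overlaps exons on the opposite strand, so its change cannot be told apart from the higher share of ambiguous reads in the 10U libraries. Ppib was also the only gene of the list called at 2d (-1.61 ± 0.22) and at 12d (-2.46 ± 0.37). Of 14 genes for collagen breakdown, 13 were tested and 6 rose at 6d, led by Ctss, a cathepsin of macrophages (4.07 ± 0.47), Mmp14, a membrane-bound collagenase (2.51 ± 0.54), and Mmp16 (2.46 ± 0.63). Of 10 collagen receptors, 9 were tested and 2 rose, Lair1 of leukocytes (3.32 ± 0.59) and the integrin chain Itgb1 (0.94 ± 0.21).

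From 2d to 6d, when 4.68% of all genes rose and 4.05% fell, 3 of 29 synthesis genes rose (Adamts14 2.48 ± 0.39, Adamts2 1.86 ± 0.32 and Bmp1 1.12 ± 0.28, which trim procollagen ends) and Loxl4 fell (-0.90 ± 0.22). Of 13 breakdown genes 5 rose and 3 fell, and the largest changes were those of the collagenases Mmp13 (-3.49 ± 0.65) and Mmp8 (-2.61 ± 0.65) and the gelatinase Mmp9 (-2.22 ± 0.47), all lower at 6d. The bone markers were also lower at 6d than at 2d, as given above, and the part of bone was not tested. Of 9 receptors 2 rose, Lair1 (1.74 ± 0.43) and Itga11 (1.32 ± 0.26). From 6d to 12d, when 13.4% of all genes rose and 13.0% fell, 6 of 29 synthesis genes fell, led by Adamts14 (-1.96 ± 0.52), Loxl3 (-1.64 ± 0.51) and Ppib (-1.43 ± 0.35). Among breakdown genes Mmp13 (3.16 ± 0.60) and Mmp9 (2.24 ± 0.57) rose and 3 fell, led by Ctsb (-1.51 ± 0.30), and the receptor Itga10 rose (1.42 ± 0.44). The bone markers were also higher and the macrophage markers lower at 12d than at 6d, and their part was not tested. In the difference of effects between 10U Col and CFA, where 4.34% of all genes differed towards 10U Col and 6.96% towards CFA, 5 of the synthesis genes differed towards 10U Col and 1 towards CFA, with Loxl1 (3.02 ± 0.40), Adamts14 (1.95 ± 0.54) and Serpinh1 (1.93 ± 0.47) the largest, and Ctsb (1.19 ± 0.31) and Itgb1 (1.01 ± 0.26) the single breakdown and receptor genes. Loxl3 and Ctsb overlap opposite exons over 12.8% and 16.2% of their length. No gene of the 3 lists was called in the 0.2U groups, at 1d or 5d post-CFA or between the vehicle groups.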

How the data were processed

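Stranded poly(A) libraries of MM were sequenced as single-end reads of 50 bases, and the authors aligned them to build mm9 with TopHat2. The deposited tables hold raw read counts per gene symbol, with no normalization, and HTSeq is named in the submitters' processing notes. Whether strand was used in counting is not given in the sources used here. The last 5 lines of each table, for reads on no gene, were left out of library sizes and tests.

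The members and gene lists were chosen with earlier results of these data known. Groups and mouse numbers came from the sample titles, and mice of 1 number are different animals. No 2 libraries held identical values among 465 pairs. Gene models were taken from GENCODE vM1 (mm9), 21627 symbols by name and 51 by a synonym, and 931 without a model were given the median exon length. All 43 collagen genes had a model. Promoter sequences are RefSeq's for GRCm38.p6.

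Genes reaching 10 counts in 3 or more compared libraries were tested with edgeR 4.0.16 in R 4.3.3 (TMM scaling, quasi-likelihood F test, group as the only factor, libraries of the comparison alone), with Benjamini-Hochberg adjustment over all tested genes. The SE of a log2 fold change is its size divided by the square root of F. A group with at most 3 counts in every library was taken as at the floor. In genes with low counts, counting error adds to the spread between mice. The p-values set the difference between groups against this variation and do not measure the spread itself.

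Named genes were 25 fixed members (Col1a1, Col1a2, Col2a1, Col3a1, Col4a1 to Col4a6, Col5a1 to Col5a3, Col6a1 to Col6a3, Col8a1, Col9a1, Col10a1, Col11a1, Col11a2, Col12a1, Col14a1, Col15a1 and Col18a1) with, in each comparison, the 3 called members of largest change and the 3 called genes of largest change of each list. Other members are named where a count is small or they were singled out after their values were seen. Alternatives were DESeq2 1.42.0, edgeR with DESeq2 size factors, no filter on low counts, 1 fit shared by 31 libraries, pooled vehicle groups, a block for the replicate number, leaving out each mouse, and the study's criteria (fold over 2, mean RPKM over 1). The scripts were tested on simulated data.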

Additional observations from a re-analysis of the deposited data

Results flagged for a closer look

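Within the groups of 4 mice, 99 sets of values of the fixed members were searched for a mouse whose gap to the next, divided by the range of the group, was over Dixon's 95% value. This found 15, where about 1 in 20 groups would be marked if CPM values were normally distributed, which was not checked. In 8 of these it was mouse 4 of the 12d 10U group that was highest: Col1a1 (5187 CPM against 955 to 1530 CPM in the other mice), Col1a2 (5677 CPM against 990 to 1531 CPM), Col5a2 (1003 CPM against 122 to 238 CPM), Col2a1 (16.3 CPM against 1.27 to 3.44 CPM), Col11a2 (89.5 CPM against 16.1 to 25.7 CPM), Col8a1 (209.8 CPM against 15.8 to 30.9 CPM), Col10a1 (2.4 CPM against 0.289 to 0.332 CPM) and Col12a1 (425 CPM against 50.4 to 107 CPM). These genes are not independent of each other, since they were read from 1 library.

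In the 0.2U group 1C, mouse 1 was lowest for Col1a1 (1309 CPM against 2936 to 3242 CPM) and Col6a3 (129 CPM against 172 to 178 CPM) and mouse 2 highest for Col2a1 (182 CPM against 19.9 to 35.1 CPM). In the 0.2U group RPC, mouse 3 was highest for Col4a6 (2.59 CPM against 1.25 to 1.4 CPM), mouse 1 for Col18a1 (65.7 CPM against 44.2 to 46.8 CPM) and mouse 2 for Col10a1, at 1.34 CPM with no count in the other 3. In the 2d 10U group, mouse 4 was highest for Col4a3 (3.68 CPM against 0.788 to 1.15 CPM).

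The change at 6d post-Col (10U) differed from that at 5d post-CFA in 7 members by the test of the difference itself (edgeR, difference of log2 fold changes and SE): Col19a1 by 3.82 ± 0.59, Col8a1 by 3.67 ± 0.88, Col18a1 by 1.57 ± 0.45, Col17a1 by -3.49 ± 0.82, Col4a6 by -3.46 ± 0.72, Col9a3 by -3.37 ± 0.82 and Col4a4 by -1.87 ± 0.50. Col9a3 and Col4a6 had few counts in the mice at 6d. The salivary gland markers also differed between these groups, as given above, and their part was not tested.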

How the results depend on the processing

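These are counts of collagen genes called. For fits that left out 1 mouse, here and above, the share of all genes called is not given. The same holds for the alternatives below, apart from the DESeq2 shares given above. These counts therefore cannot be set against the rate among all genes. At 6d post-Col (10U), 15 rose and 7 fell, 5 to 15 and 0 to 8 with 1 mouse left out, and 2 fell under the study's criteria and under the replicate block. Compared with 2d, 14 rose and none fell at 6d, 1 to 22 and 0 to 3 with 1 mouse out, and 3 fell by DESeq2 and 2 under the replicate block. From 6d to 12d, 7 rose and 4 fell, 0 to 8 and 0 to 19 with 1 mouse out. There the study's criteria and the shared fit of all libraries each left 3 higher, DESeq2 gave 7 lower and the replicate block 19 lower. At 2d, where none was called, 0 to 3 rose and 0 to 6 fell with 1 mouse out, and 1 and 3 by DESeq2, 1 and 7 in the shared fit, 3 and 4 with both vehicle groups pooled and 3 and 6 under the replicate block. At 12d against vehicle DESeq2 called 1 higher. In group 1C none was called, 0 to 3 rose with 1 mouse out, and 8 by DESeq2, 4 in the shared fit and 6 with vehicles pooled. At 5d post-CFA 1 rose, 0 to 4 with 1 mouse out, 2 by DESeq2, and 0 under each of the study's criteria, DESeq2's size factors, no low-count filter, the shared fit, pooled vehicles and the replicate block. In the difference of effects, 3 and 4 were called, 1 to 5 and 0 to 6 with 1 mouse out, 9 towards 10U Col by DESeq2 and 0 towards CFA under the study's criteria. No single called gene reversed its direction under any alternative. Same-numbered mice are different animals, and in each comparison that includes treated mice at least 1 pair's deviations correlated at under 0.1 (lowest -0.397), so the numbers were not taken to pair them. The vehicle groups, of separate experiments, had every pair over 0.1 (0.107 to 0.629) and no call with or without the block. At this depth Col9a1 had too few counts to be tested at 6d against vehicle.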
